A study of Mus musculus with 48 samples.

Results

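Binding of the transcription factor C/EBPα in mouse liver was compared between adult animals (postnatal day 60, P60) and unweaned pups (postnatal day 14, P14), using the peak lists of 2 chromatin immunoprecipitation sequencing (ChIP-seq) replicates per stage. A region of a stage was a stretch covered by peaks of that stage that held at least 1 peak of each replicate. P60 regions that overlapped no P14 region were called gained, P14 regions that overlapped no P60 region were called lost, and overlapping regions were called kept. The comparison held 52243 regions, of which 16805 were gained, 27412 kept (counted at P60) and 8026 lost. All peaks of the 4 lists, with or without both replicates, formed 99650 regions. All C/EBPα and HNF4α lists of the series together formed 245541 regions.

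The livers at both stages came from male wild-type mice of an F1 C57Bl6/CBA background. The labels name both standard chow and a high fat diet in 1 shared protocol, without saying which animals received which. The series also holds C/EBPα and HNF4α lists from embryonic day 15.5 (E15.5), embryonic day 18.5 (E18.5) and newborns (P0.5), and RNA sequencing of livers with C/EBPα deleted (CEBPa lox/lox crossed to Alfp-Cre, 3 libraries), of livers with HNF4α deleted (HNF4a lox/lox crossed to Alfp-Cre, 2 libraries), which were fitted together with the others, and of wild-type (WT) livers (3 libraries). Alfp-Cre is a transgene in which albumin and α-fetoprotein control sequences drive Cre in liver epithelial cells, so other liver cells keep the gene. Whole liver was used, so fewer cells of a type and less binding or RNA per cell cannot be told apart.

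C/EBPα is a basic leucine zipper factor that binds DNA as a dimer, and hepatocytes depend on it for the expression of plasma proteins and enzymes of glucose, lipid, nitrogen and drug metabolism. HNF4α is a nuclear receptor that is bound at many of the same hepatocyte genes. Between weaning and adulthood the mouse liver acquires its sex-dependent expression programme, which the male, pulsatile pattern of growth hormone secretion drives.

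The DNA below shows what gained, kept and lost regions covered at 5 starts of transcription, from 250 bases before to 50 bases after the start. The sequences are RefSeq promoters of mouse build GRCm38.p6, matched to the genes by symbol, and read 5′ to 3′ on the gene's strand. Capitals mark the letters TTGCNNAA or, on the other strand, TTNNGCAA, the inner part of the sequence that C/EBP dimers prefer. The first 2 windows were covered by a gained region with no P14 peak (A1bg, on the minus strand at chr15:60921221-60921520, and Cyp2c38, minus strand, chr19:39463026-39463325), the next one by a kept region (Alb, plus strand, chr5:90460620-90460919), and the last 2 by a lost region with no P60 peak (Hao2, minus strand, chr3:98893181-98893480, and Sox4, minus strand, chr13:28953650-28953949).
A1bg: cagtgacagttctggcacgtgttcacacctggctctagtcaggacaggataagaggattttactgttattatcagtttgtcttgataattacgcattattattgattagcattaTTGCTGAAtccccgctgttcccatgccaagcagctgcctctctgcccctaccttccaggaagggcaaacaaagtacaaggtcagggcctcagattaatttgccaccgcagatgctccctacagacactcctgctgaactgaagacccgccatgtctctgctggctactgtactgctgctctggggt
Cyp2c38: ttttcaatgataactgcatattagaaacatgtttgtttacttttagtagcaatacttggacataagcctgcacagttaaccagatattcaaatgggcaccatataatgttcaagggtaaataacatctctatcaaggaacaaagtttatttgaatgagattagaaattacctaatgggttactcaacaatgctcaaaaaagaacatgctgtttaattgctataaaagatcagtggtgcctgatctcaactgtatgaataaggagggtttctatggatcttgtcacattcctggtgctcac
Alb: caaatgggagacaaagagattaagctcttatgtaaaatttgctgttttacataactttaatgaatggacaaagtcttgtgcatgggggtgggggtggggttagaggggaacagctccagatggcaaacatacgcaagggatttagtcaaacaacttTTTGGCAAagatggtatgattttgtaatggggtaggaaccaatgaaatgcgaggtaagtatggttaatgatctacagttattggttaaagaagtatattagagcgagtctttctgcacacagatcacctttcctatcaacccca
Hao2: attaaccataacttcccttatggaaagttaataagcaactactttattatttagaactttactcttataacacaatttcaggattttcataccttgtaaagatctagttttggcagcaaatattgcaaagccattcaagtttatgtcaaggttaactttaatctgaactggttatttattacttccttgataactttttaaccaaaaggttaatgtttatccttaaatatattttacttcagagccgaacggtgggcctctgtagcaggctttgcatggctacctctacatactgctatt
Sox4: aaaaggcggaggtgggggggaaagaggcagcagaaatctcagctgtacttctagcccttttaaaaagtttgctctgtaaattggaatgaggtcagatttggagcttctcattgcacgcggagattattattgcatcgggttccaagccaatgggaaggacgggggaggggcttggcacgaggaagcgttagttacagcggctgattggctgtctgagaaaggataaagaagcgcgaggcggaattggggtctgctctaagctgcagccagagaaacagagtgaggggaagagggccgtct

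The letters stood at base -136 of A1bg and base -94 of Alb, counted from the start of transcription to the first letter of the match, and were not in the other 3 windows. Windows under a kept region could be shown only if they held the letters, so their presence at Alb was fixed by the choice. Windows under gained and lost regions could be shown with or without them, and A1bg was the only listed strictly gained one with them. The windows shown are examples and do not stand for their classes. Over all promoters that could be matched outside chromosome 18, which was left out, 1152 of 11243 windows (10.25%) held them on either strand. Windows under a kept region held them in 268 of 1207 cases (22.2%), windows under a gained region in 31 of 253 (12.25%) and windows under a lost region in 43 of 496 (8.67%). Windows under gained regions with no P14 peak (13 of 117, 11.11%) and under lost regions with no P60 peak (13 of 145, 8.97%) gave similar shares. The share was highest under kept regions, and a window without the letters says nothing of the factor. The forms on the 2 strands coincide in TTGCGCAA, and such a stretch was counted as 1 match. The deposited lists give positions in mouse build mm9, for which no genome was used here, so the regions away from promoters were not searched.

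The 4 lists differed in length and in peak width, and this touches every count of gained and lost regions. The P60 lists held 52237 peaks (replicate 1, median width 405 bp) and 89407 peaks (replicate 2, median 470 bp), and the P14 lists held 40636 peaks (replicate 1, median 638 bp) and 45245 peaks (replicate 2, median 642 bp). The bases shared by 2 lists were 0.381 of the bases in either for the P60 replicates (the Jaccard index), 0.611 for the P14 replicates and 0.369 to 0.396 for the 4 pairs of a P60 and a P14 list. By this measure the P60 replicates were no more alike than lists of different stages. Of the peaks of P60 replicate 1, 87.35% overlapped a peak of P60 replicate 2, and 49.89% of the peaks of P60 replicate 2 overlapped one of P60 replicate 1. The peak score is 0 in every row, so peak height could not be compared, and 2 lists against 2 cannot reach a p below 0.333 in an exact two-sided permutation test. Counts of regions are therefore given without a test.

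Gained regions made up 38.01% of the 44217 P60 regions, and lost regions 23.11% of the 34737 P14 regions. Of the gained regions, 11305 (67.27%) held no peak of either P14 list, and these are called strictly gained here. Of the lost regions, 2135 (26.6%) held no peak of either P60 list and are called strictly lost. The other lost regions rested mainly on the shorter P60 list, since 66.33% of lost regions held a peak of P60 replicate 2 and 7.538% a peak of P60 replicate 1. Without P60 replicate 1 the counts were 55442 gained and 2707 lost regions, and without P14 replicate 1 they were 13059 gained and 14370 lost. With each list cut to its 40636 widest peaks, 6611 regions were gained and 14338 were lost, so the order of the 2 counts turned round. Which class was the more numerous thus depended on the lists and peaks used, whereas individual regions with peaks in both lists of one stage and in neither of the other did not rest on 1 list.

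**Figure D1:**
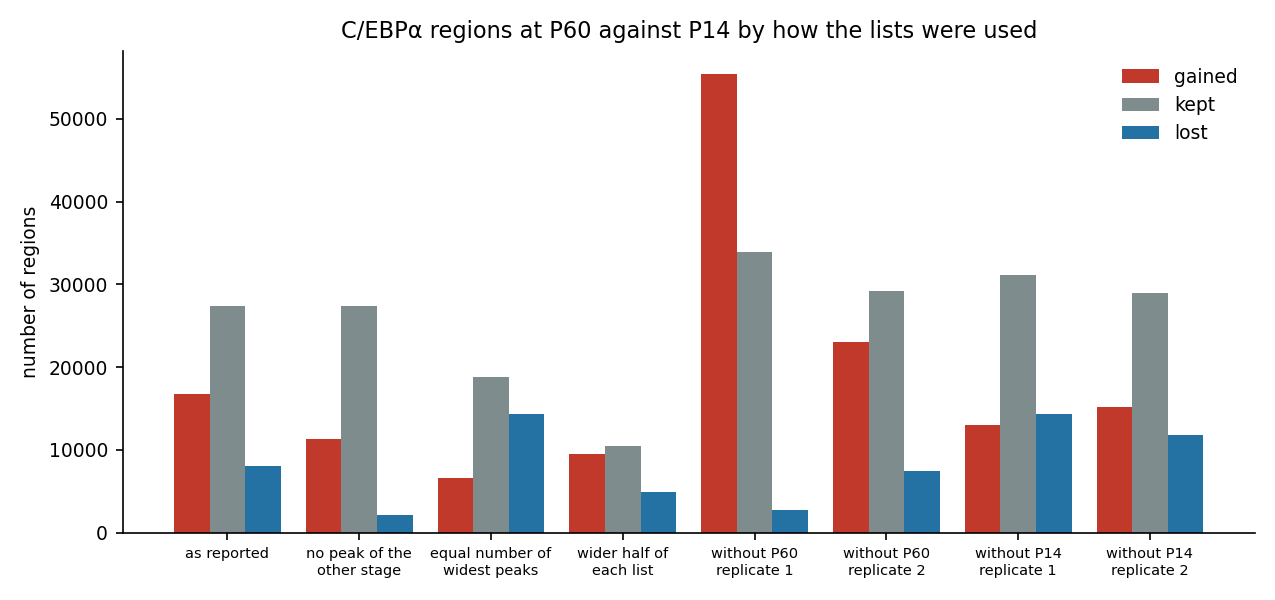
Number of gained, kept and lost C/EBPα regions (vertical axis) at P60 against P14 for the lists as deposited and for 7 other ways to use them. Gained regions outnumber lost ones 16805 to 8026 as reported, but fall below them with an equal number of widest peaks (6611 against 14338) and without P14 replicate 1 (13059 against 14370).

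Gained regions lay farther from genes than kept and lost ones. The median distance from a region's centre to the nearest start of transcription (TSS) of the deposited gene table was 23.37 kb for gained, 15.18 kb for kept and 15.20 kb for lost regions. The centre lay within 1 kb of a TSS in 6.135% of gained, 12.19% of kept and 14.29% of lost regions, and within 5 kb in 19.38%, 28.3% and 28.21% of them in the same order. Strictly gained regions had a median distance of 26.22 kb, and strictly lost ones 16.15 kb. Gained regions were also narrower (median 509 bp) than kept (640 bp) and lost ones (675 bp). Kept regions were measured at P60, from the same lists as gained ones. The share of gained regions within 5 kb of a TSS ran from 17.24% to 21.92% over the other ways to use the lists.

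Most kept and lost regions were already listed before or at birth, and gained regions less often so. All 4 lists of E18.5 and P0.5 held a peak in 36.21% of gained, 85.92% of kept and 67.62% of lost regions. No earlier list held a peak in 30.02% of gained regions (5045), 3.79% of kept and 8.759% of lost ones, and the remaining gained regions were in some of the earlier lists. A gained region with peaks at E18.5 and P0.5 is one listed around birth and in adults and not in both P14 lists. The E18.5 and P0.5 lists were longer, at 70171 to 121624 peaks, than the P14 lists, and the part of list length in these regions was not tested. Among strictly gained regions 25.71% were in all 4 of these lists and 38.36% in no earlier list. At E15.5, where the lists held 16900 and 13434 peaks, 4.582% and 3.303% of gained regions held a peak, against 39.84% and 31.54% of kept regions.

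HNF4α peaks were more frequent at P60 than at P14 in gained and kept regions. HNF4α peaks of the P60 lists were in 33.35% (replicate 1) and 39.46% (replicate 2) of gained regions, against 15.58% and 15.48% for the P14 lists. For kept regions the shares were 61.31% and 68.52% at P60, against 49.39% and 50.08% at P14, and for lost regions 28.72% and 34.81% at P60, against 30.19% and 30.81% at P14. The HNF4α lists were longer at P60 (46926 and 49395 peaks) than at P14 (28222 and 29506 peaks), and the part of list length in these shares was not tested. Strictly lost regions went the other way, with 15.74% and 24.26% at P60, against 27.31% and 28.34% at P14. Both HNF4α lists of P60 and neither of P14 held a peak in 13.77% of gained, 9.39% of kept and 3.738% of lost regions. Each stage had only 2 lists, so these shares carry no test of the stages. The 2 HNF4α lists of P0.5 were identical in every peak and are counted as 1 list.

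**Figure D2:**
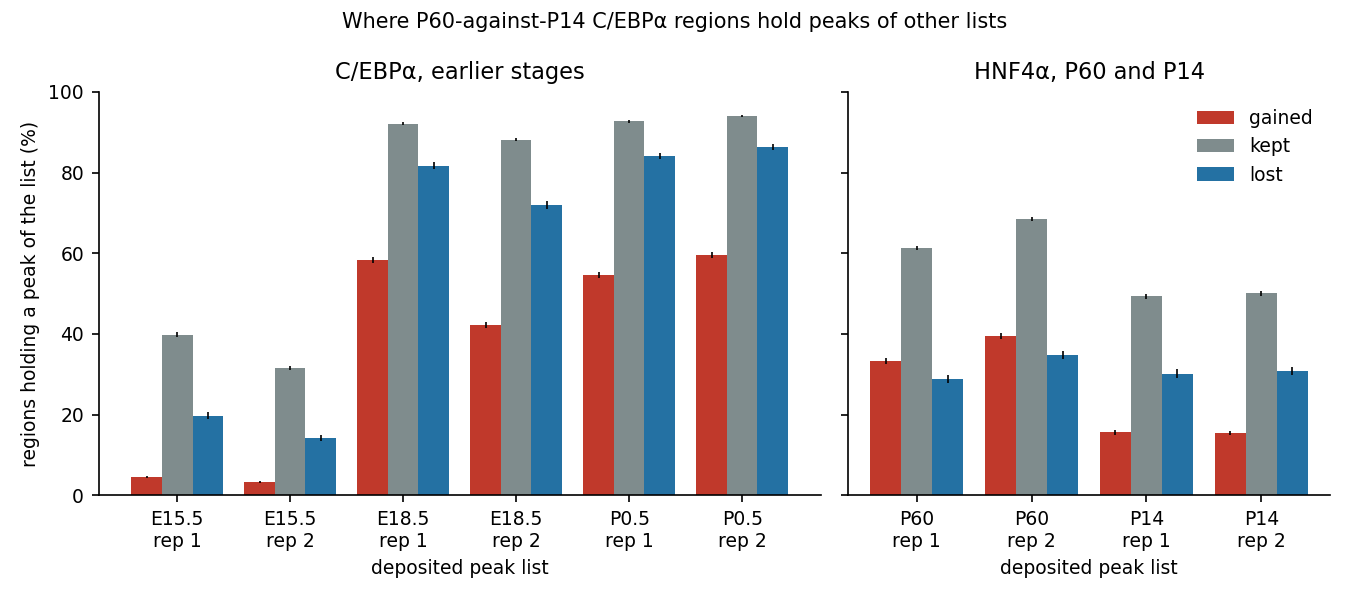
Share of gained, kept and lost C/EBPα regions (%, vertical axis) that hold a peak of each earlier C/EBPα list (left) and of each HNF4α list of P60 and P14 (right). Error bars are 95% Wilson intervals, which cover counting error only. Gained regions have the lowest share in every earlier C/EBPα list, and their HNF4α share is 33.35% and 39.46% at P60, against 15.58% and 15.48% at P14.

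Genes were assigned to a class by the regions within 5 kb of their TSS. Of 37583 genes in the deposited table, 7649 (20.4%) had a kept region, 2240 (5.96%) had gained regions only, 1622 (4.32%) had lost regions only, 247 had gained and lost ones, and 25825 had none. Among 22369 protein-coding genes these shares were 25.5% kept, 6.44% gained only and 5.33% lost only, while 11.9% had a gained region of any kind, 7.01% a strictly gained region and 2.55% a strictly lost one, whatever else they had, and 61.9% had no region. The 26 gene lists described next are read against these protein-coding shares. They hold 572 distinct measured genes, of which 336 had a kept region, 45 gained only, 23 lost only, 5 both gained and lost, and 163 none.

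The core hepatocyte genes were bound at both stages. All 24 acute phase genes and all 20 plasma carrier proteins had a kept region, as did 22 of 24 coagulation genes, 26 of 32 genes of the urea cycle and amino acid breakdown and 36 of 45 cytochrome P450 and drug metabolism genes. Alb, which encodes serum albumin, had 3 kept regions, and the one over its TSS (chr5:90889351-90890110, mm9) held a peak in all 10 C/EBPα lists from E15.5 on and in every HNF4α list. Of 6 hepatocyte markers, 5 had a kept region (Alb, Ttr, Apoa1, Serpina1a and Cps1), and Hnf4a had no region of any class within 5 kb of its listed TSS. A single TSS was used per gene, the 5′ end of the listed gene, so any other start of Hnf4a was not examined. Of the markers of other liver cells, a kept region was present at none of 16 for macrophages, 1 of 18 for lymphocytes (5.556%), 2 of 16 for stellate cells and fibroblasts (12.5%), 3 of 18 for myeloid cells (16.67%), 4 of 22 for erythroid cells (18.18%), 3 of 15 for bile duct cells (20%) and 6 of 17 for endothelial cells (35.29%). The endothelial share was above the 25.5% of protein-coding genes and the others were below it. Cebpa itself had 2 kept and 2 gained regions, and each gained one (chr7:35901781-35902642 and chr7:35908173-35909282) also held a peak of P14 replicate 2.

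**Figure D3:**
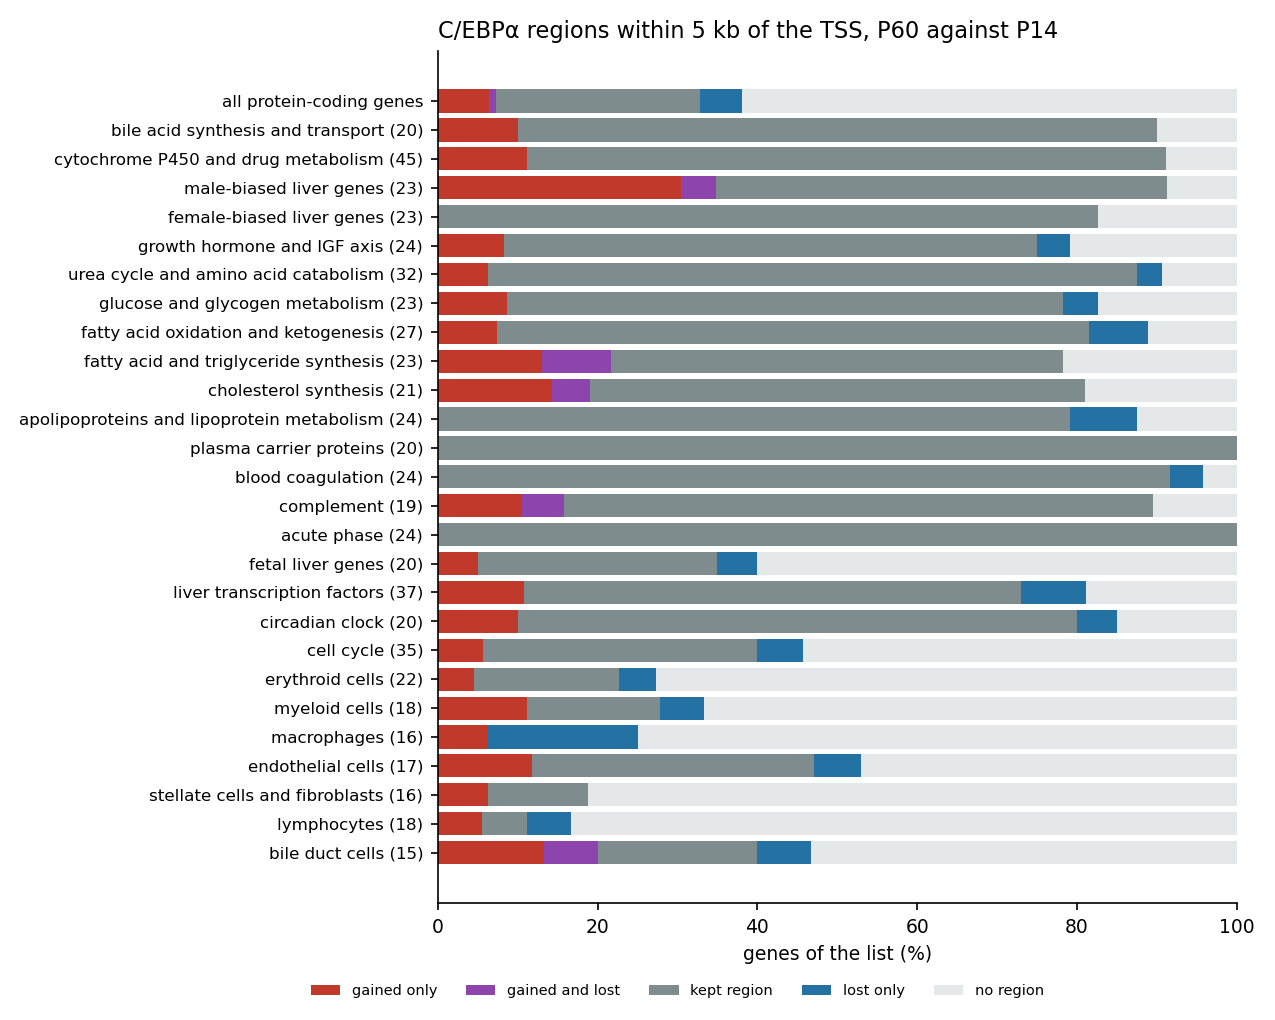
Share of the genes of each list (%, horizontal axis, number of genes in parentheses) by the C/EBPα regions within 5 kb of the TSS. The male-biased list has the widest gained-only segment of the lists, 30.43% against 6.44% of all protein-coding genes, and the female-biased list has none.

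Genes that adult male livers express more than female livers had gained regions only more often than any other of the 26 lists. Of 23 male-biased genes, 7 (30.43%) had gained regions only, 13 had a kept region, C8a had gained and lost regions, and 2 had none. A strictly gained region was present at 14 of the 23 genes, against 7.01% of protein-coding genes, and a strictly lost one at 1 gene. Near these genes lay 25 gained regions, 24 of them with no P14 peak. No earlier list held a peak in 12 of the 25, all 4 lists of E18.5 and P0.5 did in 5, and both HNF4α lists did at P60 in 9, against 1 at P14. Over all gained regions these shares were 30.02%, 36.21%, 29.52% and 12.84%, in the same order. The HNF4α count at P60 was thus near the share of all gained regions, and all these counts are small. The count of genes with gained regions only was 5 to 8 under every other setting tried, and 7 with an equal number of widest peaks. With a TSS distance of 1 kb, 7 of the 23 genes had a gained region of any kind. The list was put together with results of these data known, so its share is a description. Some members are near-identical copies (Cyp4a12a and Cyp4a12b, the Mup, Ugt2b and Slco1a families), at which reads may have been placed on either copy.

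Cyp7b1, which encodes the oxysterol hydroxylase of the alternative bile acid pathway, had the most strictly gained regions within 5 kb of any gene, 5 in all. They lay from -3343 to -2761, from -2270 to -1642, from 180 to 608, from 1022 to 1719 and from 4849 to 5377 bp from the TSS (chr3:18137961-18146681, mm9, for the stretch from the first to the last). Each was held by both P60 lists and by neither P14 list. The region from -2270 was also held by all lists of E18.5 and P0.5, and that from 180 by 1 list of E18.5, while the other 3 were in no earlier C/EBPα list.

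Elovl3, which elongates very long fatty acids, had 2 strictly gained regions, 1 over its TSS (chr19:46206152-46206739, -235 to 352 bp) and 1 just inside the gene (chr19:46207108-46207558, 721 to 1171 bp). Both P60 lists held both, and no P14 list held either. Among earlier lists, the region over the TSS was in 1 list of P0.5, and the inner one was in 1 list of E18.5 and both of P0.5. The region over the TSS also held HNF4α peaks in both P60 lists and in neither P14 list.

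Cyp4a12a, an ω-hydroxylase of fatty acids, had 2 strictly gained regions (chr4:114971426-114971843, -225 to 192 bp, and chr4:114972656-114973349, 1005 to 1698 bp). These differed from most of the Cyp7b1 regions in their history. Both were held by all 4 lists of E18.5 and P0.5, by neither list of P14 and by both of P60. The inner region showed the same gap for HNF4α, which had peaks there in the lists of E15.5, E18.5, P0.5 and P60 and none in those of P14. Its near-copy Cyp4a12b had a matching pair of regions (chr4:115083878-115084331 and chr4:115085209-115085983). Slco1a1, an organic anion transporter, had 1 strictly gained region of 1024 bp (chr6:141896013-141897036), with HNF4α peaks in both P60 lists and in no earlier HNF4α list. Ugt2b38, a glucuronosyltransferase, had 2 gained regions, of which 1 also held a peak of P14 replicate 2 (chr5:87855561-87856128), and without P14 replicate 1 the gene had a kept region.

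Other male-biased genes added regions beside kept ones, and these are named after their values were seen. C9, a late complement component, kept regions at -1133 to 305 and -3137 to -2443 bp and gained 2 at 1002 to 1823 and 4384 to 4821 bp (chr15:6396329-6397150 and chr15:6399711-6400148). Neither gained region was in any earlier C/EBPα list. C6 likewise gained 2 inner regions in no earlier list (chr15:4677694-4678096 and chr15:4679244-4679819), and Mup3, a major urinary protein, gained 1 (chr4:61744692-61745370). Cyp2d9, a testosterone hydroxylase, gained a region of 2412 bp that begins 4979 bp into the gene, one of the 10 widest strictly gained regions of the genome.

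Female-biased genes were mostly bound at both stages. Of 23 such genes, 19 (82.61%) had a kept region, against 25.5% of protein-coding genes, none had gained regions only and none had lost regions only. A strictly lost region lay near 3 of them, Hao2, Cyp3a16 and Cyp3a44, against 2.55% of protein-coding genes, and a strictly gained one near 1, A1bg, against 7.01%. These are small counts, and that of gained regions of any kind, 2 of 23, was near the 11.9% of protein-coding genes. Hao2, a peroxisomal hydroxyacid oxidase, lost a region of 1331 bp over its TSS (chr3:98696908-98698238) that all lists of E18.5, P0.5 and P14 held and neither P60 list did. HNF4α peaks were there in neither P60 list and in both P14 lists. Cyp3a16, a steroid and drug hydroxylase of young mice, lost a region at -2133 to -1401 bp (chr5:146231993-146232725) with the same C/EBPα and HNF4α pattern between P60 and P14. Its relative Cyp3a44 lost 1 at -1786 to -1270 bp (chr5:146618720-146619236), where HNF4α had a peak in no P60 list and in 1 P14 list. Both Cyp3a genes kept another region. The 3 genes were singled out after their values were seen.

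**Figure D4:**
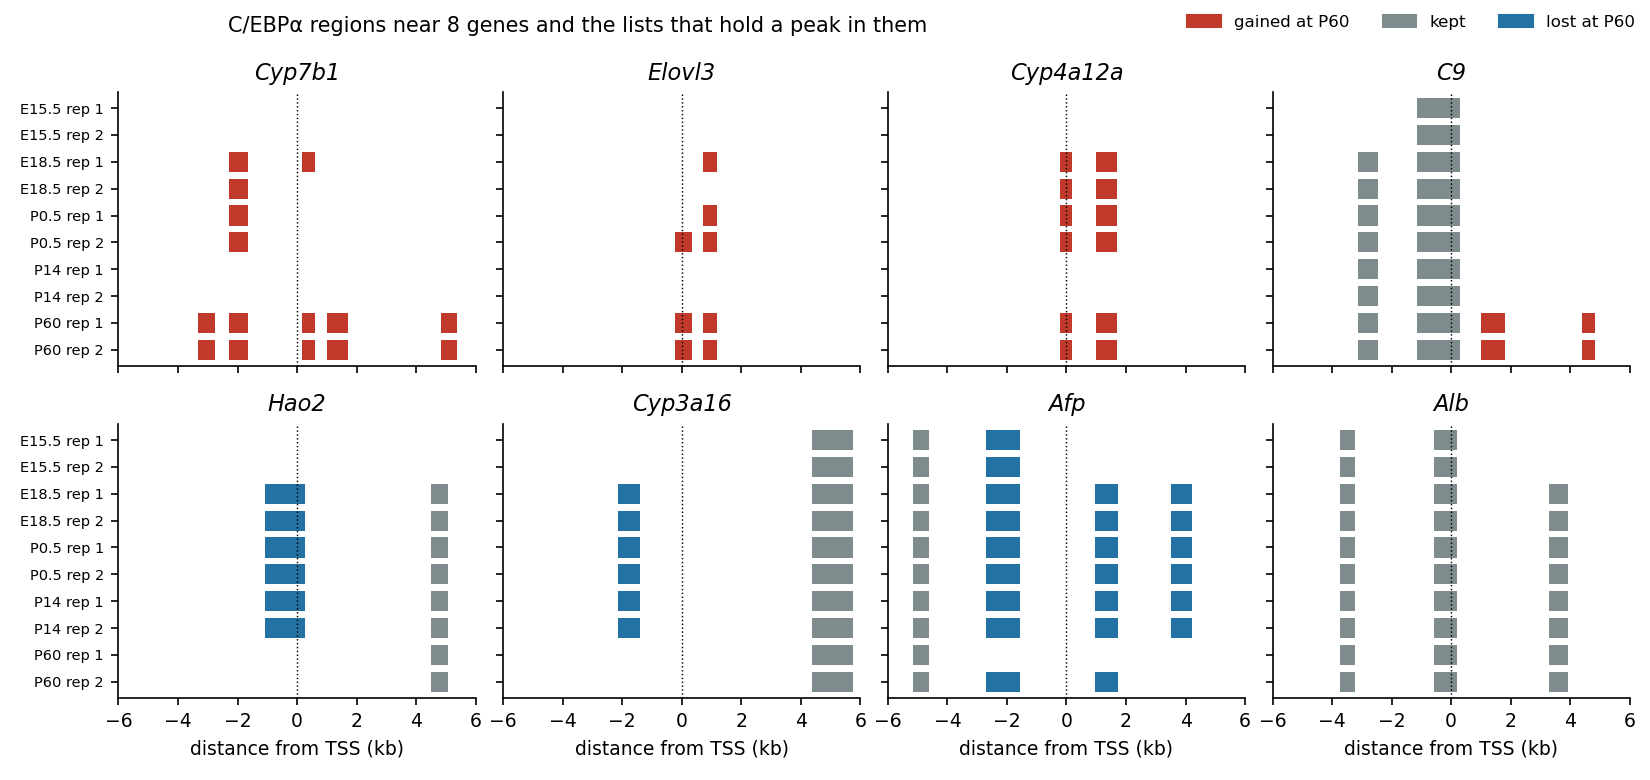
C/EBPα regions within 5 kb of the TSS (dotted line) of 8 genes, against distance from the TSS in the direction of transcription (kb). Each row is a deposited list, from E15.5 at the top to P60 at the bottom, and a box is drawn over the whole region where that list holds a peak in it. All regions of Cyp7b1, Elovl3 and Cyp4a12a and 2 regions of C9 have boxes in both P60 rows and in neither P14 row, and 1 region each of Hao2, Cyp3a16 and Afp shows the reverse.

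The fetal liver list was close to the background in the share with no region, 12 of 20 (60%), against 61.9% of protein-coding genes. Besides genes of the fetal liver, the list holds Zhx2 and Zbtb20, regulators of such genes, each with a kept and a lost region. A kept region was at 6 (30%, against 25.5%). A lost region of any kind was near 4 of the 20, against 9.692%, and a strictly lost one near 2, against 2.55%. A gained one was near 1, against 11.9%, and all these counts are small. Afp was singled out within the list after its values were seen. Afp encodes α-fetoprotein, the main plasma protein of the fetal liver. It kept 1 region at -5155 to -4615 bp and lost 3, at -2694 to -1559, 945 to 1720 and 3525 to 4213 bp. All 3 lost regions were in both P14 lists and in all lists of E18.5 and P0.5. P60 replicate 2 held a peak in the first 2 of them and P60 replicate 1 in none, and the third (chr5:90923265-90923953) was strictly lost. HNF4α had a peak in the first lost region (chr5:90917046-90918181) in neither P60 list and in both P14 lists. Peg3, an imprinted zinc finger gene, had 2 lost regions and no other, 1 of them strictly lost (chr7:6685053-6685780).

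Gained regions only were at 3 of 23 genes of fatty acid and triglyceride synthesis (13.04%) and 3 of 21 of cholesterol synthesis (14.29%). The share was 6.44% of protein-coding genes, 11.11% (5 of 45) of cytochrome P450 and drug metabolism genes and 10% (2 of 20) of bile acid genes. It ran from 6.25% to 8.696% for amino acid breakdown, fatty acid oxidation and glucose genes and was 0% for apolipoproteins. All these counts are small. Fasn, the fatty acid synthase, gained a region of 977 bp inside the gene (chr11:120682754-120683730) that was in both P60 lists, in neither P14 list and in all 4 lists of E18.5 and P0.5. HNF4α peaks were there in both P60 lists and in no other HNF4α list. Sqle, squalene epoxidase, gained 1 that the same lists of E18.5 to P60 held (chr15:59151304-59151993). The gained regions of Me1, Lpin1 and Pmvk each held a peak of 1 P14 list as well, and each of these genes had a kept region once the P14 list without that peak was left out. Fasn without P14 replicate 2 and Sqle without P14 replicate 1 had gained and lost regions, so the count of 3 became 0 in the fatty acid list without P14 replicate 2 and 0 in the cholesterol list without P14 replicate 1. No gene of either list had lost regions only. Nr1i3, the xenobiotic receptor CAR, gained 2 regions, of which that at 521 to 1222 bp (chr1:173144622-173145323) was strictly gained.

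Genes with lost regions only numbered at most 3 per list. Their share was largest among macrophage markers, 3 of 16 (18.75%), against 5.33% of protein-coding genes. Apom, a carrier of sphingosine-1-phosphate in plasma, lost a strictly lost region over its TSS (chr17:35268669-35269405) and 1 at -3282 to -2521 bp that P60 replicate 2 still held. Apoa5, a regulator of plasma triglycerides, lost 1 over its TSS (chr9:46076285-46076983) that P60 replicate 1 still held. Ass1, an enzyme of the urea cycle, lost 1 at -795 to 111 bp (chr2:31324932-31325838) that P60 replicate 2 still held. Rxra, the partner of many nuclear receptors, Npas2, a clock factor, and the cell cycle genes Ccnd1 and Cdkn1a each had 1 strictly lost region and no other. The 3 macrophage genes were Cd68, Csf1r and Lyz2, and the regions of Csf1r and Lyz2 held a peak of P60 replicate 2. Without P60 replicate 1, 6 of the 23 list members with lost regions only kept that class. All 45 members with gained regions only kept theirs, but leaving out a P60 list adds no P14 region, so this follows from the definition. Without P14 replicate 1, 28 of those 45 kept their class, and all 23 with lost regions only did, for the same reason.

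Outside the lists, several genes gained a run of regions. Cml2, an acetyltransferase-like gene, and Ces3a, a carboxylesterase, each had 4 strictly gained regions within 5 kb, and Ces3b, the neighbouring carboxylesterase, had 3. Of the Cml2 regions 3 were in no earlier C/EBPα list, and 3 held HNF4α peaks in both P60 lists. The region over the TSS of Ces3b (chr8:107606994-107608078) was in both P60 lists of C/EBPα and of HNF4α and in no earlier list of either. Fabp5, an intracellular fatty acid carrier, had 3 strictly lost regions and 1 kept. The region at -4954 to -4436 bp (chr3:10007594-10008112) was in both P14 lists and in no other C/EBPα list, earlier or later. The 2 widest strictly gained regions, of 18535 and 7181 bp, lay side by side on chromosome Y, where repeated sequence makes the placement of reads uncertain.

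RNA of livers lacking C/EBPα was set against these classes. The labels give the RNA livers an age of 60 days, the design text gives E18.5, and Afp stood at 625821, 499143 and 706964 normalised reads in WT livers, so the RNA is not taken as that of P60 livers. Cebpa had 322, 419 and 998 normalised reads in knockout livers, against 9999, 9594 and 5511 in WT livers, a log2 difference of -3.98 ± 0.44 (SE, adjusted p = 0.000413, limma). Of 17771 genes tested, 509 (2.86%) were lower and 157 (0.883%) were higher in knockout livers at an adjusted p under 0.05. When each library was scaled to its own total, the median log2 difference of all genes was 0.53, against 0.03 with the authors' scaling, and 324 genes were lower and 474 higher, so directions are relative to the scaling. The 666 calls became 309 without WT replicate 1, 403 without WT replicate 2 and 406 without knockout replicate 1.

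Genes with a kept region were lower in knockout livers most often. Of 5693 such genes tested, 375 (6.587%) were lower and 25 (0.439%) were higher, with a median log2 difference of -0.13, against 0.03 over all genes. Of 1240 genes with gained regions only, 30 (2.419%) were lower and 14 (1.129%) higher, and of 1167 with lost regions only, 20 (1.714%) were lower and 10 (0.857%) higher, with medians of 0.05 and 0.06. Of 9485 genes with no region, 80 (0.843%) were lower and 106 (1.118%) higher. The classes also differed in RNA level. The median of the mean WT value was 470.67 normalised reads for kept, 270.83 for gained-only, 353 for lost-only and 135.33 for unbound genes. The part of RNA level in these shares was not tested. The shares lower for gained-only and lost-only genes were below the 2.86% of all genes, which include the kept ones. They were above the 0.843% of genes with no region. Among genes with a kept region, 9.265% of those with a gained region as well were lower. The share was 6.46% with a lost region as well and 6.036% where all regions were kept. No test of the difference between classes was made. With each library scaled to its own total the shares lower were 4.251% of kept, 1.532% of gained-only, 0.771% of lost-only and 0.548% of unbound genes, in the same order.

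**Figure D5:**
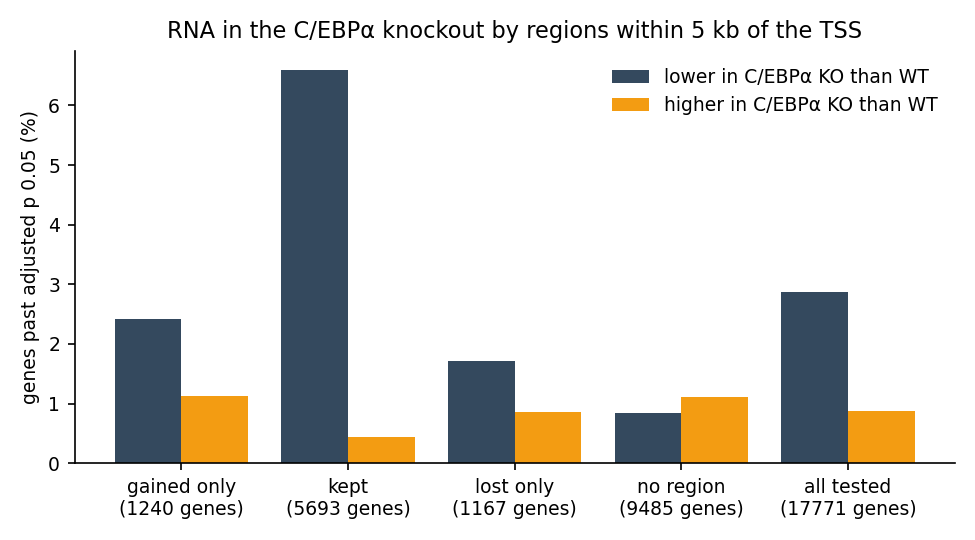
Share of tested genes (%, vertical axis) that were lower or higher in C/EBPα knockout than in WT livers (limma, adjusted p under 0.05, 3 libraries each) by the C/EBPα regions within 5 kb of the TSS. Genes with a kept region were lower in 6.587% of cases, against 2.86% of all genes, and gained-only and lost-only genes stood at 2.419% and 1.714%.

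Among genes whose regions were all kept, Serpina3k, a serine protease inhibitor of plasma, had 94, 31 and 219 normalised reads in knockout livers, against 53144, 44680 and 4142 in WT livers (log2 difference -7.94 ± 0.91, adjusted p = 0.000565, limma). Saa4, a constitutive serum amyloid protein, had 1, 5 and 6 reads in knockout livers, against 862, 803 and 798 in WT livers (-7.55 ± 0.53, adjusted p = 2.75e-05, limma). Aldh8a1, an aldehyde dehydrogenase, fell as far, with 10, 3 and 14 reads in knockout livers, against 1575, 1368 and 1464 in WT livers (-7.40 ± 0.52, adjusted p = 2.75e-05, limma). The groups did not overlap at any of the 3 genes. These were named because they were called and fell among the most, so the lack of overlap is no separate test. Hfe2 (hemojuvelin, an iron regulator) and Cyp2a4 (a female-biased steroid hydroxylase) also fell, while Cyp2c55, Tmem54 and Cldn4 rose. The calls of Tmem54 and Cldn4 were lost without knockout replicate 2 (adjusted p = 0.0594, limma) and knockout replicate 3 (adjusted p = 0.0588, limma), in this order.

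Among genes with gained regions only, Sds, a serine dehydratase, had 9, 2 and 2 reads in knockout livers, against 79, 153 and 80 in WT livers (-4.48 ± 0.69, adjusted p = 0.00358, limma). Nr1i3 had 27, 8 and 146 reads in knockout livers, against 659, 530 and 1129 in WT livers (-4.46 ± 0.82, adjusted p = 0.0107, limma), and its adjusted p was 0.0518 without WT replicate 1. Serpina3c, Igfbp2 and C4a also fell, but Igfbp2 varied widely, with 169, 55 and 7446 reads in knockout livers, against 16407, 26310 and 13550 in WT livers. These 3 calls were lost without WT replicate 1, WT replicate 2 or knockout replicate 1 (adjusted p of 0.102 to 0.168, limma). Those of Igfbp2 and C4a were also lost without WT replicate 3 (0.1001 and 0.113), and those of Serpina3c and Igfbp2 without knockout replicate 2 (0.0932 and 0.125). Car7, a carbonic anhydrase, rose to 292, 415 and 714 reads in knockout livers, against 14, 3 and 15 in WT livers (5.49 ± 0.64, adjusted p = 0.000617, limma). Kl and Sucnr1 rose as well, and the call of Sucnr1 was lost without knockout replicate 1 (adjusted p = 0.0585, limma).

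Of the 6 male-biased genes with gained regions only that could be tested, Ugt2b38 and Slco1a1 were lower in knockout livers, as were 2 of 13 male-biased and 9 of 16 female-biased genes with a kept region, against 2.86% of all genes tested. None of these was higher. Ugt2b38 had 14, 7 and 9 reads in knockout livers, against 167, 211 and 179 in WT livers (-4.13 ± 0.56, adjusted p = 0.00157, limma). Slco1a1 had 9, 9 and 8 reads in knockout livers, against 60, 64 and 249 in WT livers (-3.37 ± 0.70, adjusted p = 0.0218, limma), and the call was lost without WT replicate 1 (0.0623), WT replicate 3 (0.0979), knockout replicate 1 (0.0705) or knockout replicate 2 (0.0565). Cyp4a12a had 32, 27 and 134 reads in knockout livers, against 2476, 1148 and 71 in WT livers, and did not pass (adjusted p = 0.129, limma).

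Among genes with lost regions only, Miox, the inositol oxygenase, was at 0 reads in all 3 knockout libraries, against 76, 107 and 39 in WT livers (adjusted p = 0.00101, limma). Apoa5 had 54, 13 and 77 reads in knockout livers, against 1032, 1598 and 376 in WT livers (-4.45 ± 0.68, adjusted p = 0.00352, limma). Lrtm1, Nupr1 and Dnaic1 fell too, and the call of Lrtm1 was lost without WT replicate 1 (adjusted p = 0.0523, limma). Cym, a chymosin gene, rose to 2033, 965 and 317 reads in knockout livers, against 8, 26 and 24 in WT livers (5.55 ± 0.71, adjusted p = 0.00127, limma), and Slc22a8 and Bmp7 rose as well.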

How the data were processed

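Per the labels, ChIP-seq and RNA reads were processed with mm9 as the genome build, and the submitters' processing notes name BWA, MACS 1.4, TopHat2 and DESeq among the tools, without their roles. The C/EBPα and HNF4α peak lists deposited by the authors hold positions, 1 list per replicate, with a score of 0 in every row; how the peaks were filtered is not given in the sources used here. The authors deposited 1 RNA table of normalised reads rounded to whole numbers, treated here as a score and not as counts.

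Regions were formed from overlaps of at least 1 bp, and genes were assigned by a TSS within 5 kb of a region's edge, from the 37583 genes of the deposited table, in mm9. The interval code was tested on simulated data (Python 3.11.15). RNA was tested with limma 3.58.1 on log2(value + 1) of genes with a value of at least 10 in 2 libraries, in 1 fit of all 8 libraries (2 of them from HNF4α knockout livers), with Benjamini-Hochberg adjustment. The libraries summed to 13.45 to 16.42 M normalised reads (C/EBPα knockout) and 20.38 to 22.46 M (WT). The labels do not say that replicates came from separate animals, so p-values measure the spread between these libraries.

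RefSeq promoters (GRCm38.p6) were matched for 18162 genes by symbol. They were used for the 11243 whose length lay within 100 bp of the mm9 gene and that were not on chromosome 18. The planned search for motifs in the regions was made in promoters only. From each of 26 gene lists up to 4 members per class were named by distance to the TSS, with the 10 genes richest in strictly gained or lost regions, the 10 widest regions, and by class the 5 RNA genes that fell and 3 that rose the most. Genes outside this rule, such as Ugt2b38, C9, Hao2 and Afp, were chosen after their values were seen. The members and lists were chosen with earlier results of these data known. The symbols Hmgcs1, C5 and Ahsp were not matched. Alternatives were another overlap, other peak cuts, each list left out, other TSS distances and, for RNA, other pseudocounts, filters, scalings and libraries.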

Additional observations from a re-analysis of the deposited data

How the results depend on the processing

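Counts of gained, kept and lost regions and their genes moved by under 1.5 times when the overlap had to cover 0.5 of the shorter region or when regions were cut to bases of both replicates. With an equal number of widest peaks there were 6611 gained and 14338 lost regions, 942 genes with gained and 3456 with lost regions only, 1373 gained regions within 5 kb of a TSS, 2694 in all lists of E18.5 and P0.5 and 3128 in both HNF4α lists of P60. With the wider 0.5 of each list there were 9493 gained, 10514 kept and 4968 lost regions, 2081 gained ones within 5 kb of a TSS and 3549 genes with a kept region. With strict classes there were 2135 lost regions, 487 genes with lost regions only, 1949 gained regions within 5 kb of a TSS, 2906 in all lists of E18.5 and P0.5 and 3002 in both HNF4α lists of P60. A TSS distance of 1 kb gave 1168 genes with gained regions only and 4269 with kept ones. Leaving out 1 list at a time gave 13059 to 55442 gained, 29003 to 33965 kept and 2707 to 14370 lost regions. It gave 2401 to 11287 gained regions within 5 kb of a TSS, 3836 to 15110 in all lists of E18.5 and P0.5 and 3791 to 10798 in both HNF4α lists of P60. Genes with gained regions only numbered 1511 to 6485, with kept ones 7807 to 8848 and with lost ones only 420 to 2761. With an equal number of widest peaks the Jaccard index was 0.378 for the P60 and 0.609 for the P14 replicates.

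RNA calls numbered 281 with no filter on low values, where more genes were tested, and 309 to 801 with 1 library left out. The replicate numbers are shared without pairing the samples (deviations of same-numbered knockout and WT libraries correlated at -0.063, 0.19 and -0.231), and a fit with the replicate number as a block called 509 genes. Without the HNF4α knockout libraries 537 genes were called. The cause of the other moves was not tested. Of the counts given with their values here, 72 stayed within 1.5 times or the spread and 33 moved further over all alternatives. Of the other values (single genes, gene lists, and counts of regions and RNA calls by class), 588 kept their direction and side of the threshold or stayed within 1.5 times. Another 113 moved further, 65 no longer passed and 2 newly passed. A reversal could be scored only for the RNA of single genes, where none was found, and not for counts. With no peak heights, the precision of the region classes is limited by the 2 lists per stage.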

Other observations

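The widest strictly gained region after the pair on chromosome Y was one of 3246 bp on chromosome 7, and the widest strictly lost region was one of 6940 bp on chromosome 8, near Gm15319. Of the 10 widest strictly lost regions 3 lay on chromosome X, near 4932411N23Rik (4428 bp), Vmn2r121 (3102 bp) and Rps12-ps6 (2017 bp).

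Complement genes, a group only touched on above, held gained regions at 11 of 19 measured members, against 11.9% of protein-coding genes, 7 of them strictly gained (C3, C6, C8a, C9, Cfb, C4bp and Mbl2), against 7.01% of protein-coding genes with a strictly gained region. Of the 14 gained regions near these genes, 8 were in no earlier C/EBPα list, against 30.02% of all gained regions. Other hepatocyte lists also stood above the 11.9%. Gained regions of any kind were at 14 of 32 genes of the urea cycle and amino acid breakdown and 18 of 45 of cytochrome P450 and drug metabolism. They were at 11 of 27 genes of fatty acid oxidation and 10 of 23 of fatty acid and triglyceride synthesis. C6, C8a and C9 are also members of the male-biased list, so the complement and male-biased counts share genes. C8a, the α chain of the eighth component, gained a region at 1312 to 2205 bp (chr4:104546798-104547691) and lost 2, at -4271 to -3717 and -5395 to -4772 bp.

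The 20 circadian clock genes were mostly bound at both stages, with a kept region at 14 (70%, against 25.5% of protein-coding genes). No region was near 3 of them (15%, against 61.9%). A lost region of any kind was near 6 of the 20, against 9.692%, and a gained one near 5, against 11.9%. Gained regions only were at 2 (10%, against 6.44%) and lost regions only at 1 (5%, against 5.33%). A strictly gained region was near 2 (against 7.01%) and a strictly lost one near 2 (against 2.55%), all small counts. Arntl and Tef had gained regions only, each with a peak of P14 replicate 2 as well, and Npas2 had a strictly lost region only. Strictly gained regions were also near Per2 and Nr1d1, and a strictly lost one near Nr1d2.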
